A study of Mus musculus with 6 samples.

Results

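The 39 genes described here encode the machinery with which a macrophage reshapes actin beneath its membrane and takes in membrane through clathrin-coated pits. They were found by gene symbol, with no measured value used in the rule: 8 subunits of the Arp2/3 complex, 7 genes of its activators, the 3 GTPases Cdc42, Rac1 and RhoA, 5 actin turnover proteins, 8 clathrin and adaptor subunits, the dynamin gene Dnm2, 2 flotillins and 5 endosome genes. All 39 were among the 40213 genes of the deposited counts, and 39 of 39 passed the filter on low counts, which 12893 genes passed in all. RNA was sequenced from 6 samples of mouse bone marrow-derived macrophages. Both groups came from C57BL/6 marrow grown for 4 days in macrophage colony-stimulating factor (M-CSF, 25 ng/ml), 10% serum and antibiotics, and no genetic change is named. In the MNP group, 3 samples then received 50 µg of polystyrene micro- and nanoplastics (MNP) for 24 h, in a volume and of a particle size that the labels do not give. The 3 control samples received none. The labels do not say whether the 3 replicates of a group came from separate animals or cultures, so p-values here cover only how far these samples differ from each other, which may be technical.

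The Arp2/3 complex starts new actin filaments as branches on the sides of existing ones, and it is switched on by the WASP proteins and by the WAVE complex, which the GTPases Cdc42 and Rac1 recruit. Profilin, cofilin and coronins supply and recycle the actin, and macrophages use the resulting protrusions for phagocytosis and macropinocytosis, the routes by which they take up particles and fluid. In clathrin-mediated endocytosis the AP-2 adaptor binds cargo and clathrin, dynamin cuts the vesicle free, and RAB5, its effector EEA1 and RAB7 carry it from the early to the late endosome.

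The libraries held 20262859 to 23042146 counts, and the 39 genes took 1.40% to 1.46% of them. Counts per gene and library ran from 306 (Arpc5l in control 2) to 33086 (Cltc in MNP 3). One library, MNP 1, stood apart: the gene Gm26917 made up 1.02% of its counts and 0.25% to 0.44% of those of the rest. All 10 macrophage markers were present, with summed levels of 22316 to 23223 in controls and 20612 to 21855 in MNP libraries, as CPM, the counts of a gene relative to library size, corrected by edgeR's normalization factors (scaled CPM, used throughout), and 4 of the 10 (Adgre1, Mertk, Fcgr1 and Lyz2) passed as lower. Neutrophil markers summed to 185 to 274 and 135 to 154 scaled CPM, with 5 of 9 tested lower, and dendritic cell markers to 50.5 to 59.8 and 66.8 to 76.8, with 1 of 7 tested higher (Cd24a, 48.2 to 68.5 on average, most of the sum) and 2 lower (Siglech and Dpp4). T and NK cell markers summed to 15.8 to 19.9 and 4.25 to 5.35. Most of that sum was Cd4 (17.1 to 3.94 on average), the 1 of 2 tested that passed as lower. The other tested gene, Klrb1c, was at 0.817 and 0.824 on average. Cd3e, Ncr1 and Gzma were at 0 in all 6 libraries, and Cd3d, Cd8a and Eomes had at most 6 counts in a library. Megakaryocyte markers summed to 17.8 to 25.5 and 12.0 to 14.0, mostly Pf4, with 1 of 3 tested lower (Itga2b, 4.38 to 0.903 on average). Those of B, erythroid, mast and stromal cells stayed at or below 3.35. The part of these shifts in the results below was not tested. In bulk RNA, fewer cells of a type and less RNA per cell cannot be told apart.

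Small differences marked this machinery. After MNP treatment, 7 genes rose, and they belong to actin remodelling: Pfn1 (profilin 1), Arpc2 and Arpc1b of the Arp2/3 complex, Cdc42, Cyfip1 of the WAVE complex, and the coronins Coro1a and Coro1b. A single gene fell, Ap2a2, a large subunit of the AP-2 adaptor. A gene was called changed at an edgeR adjusted p under 0.05 over all tested genes. The 7 higher of 39 (17.9%) stand beside 9.11% of all tested genes, and the 1 lower (2.56%) beside 8.35%. Levels of the 39 genes are high, so a second background leaves out genes below the lowest member mean. Among the 6821 tested genes at or above that mean, 13.2% were higher and 9.65% lower. The lowest mean was that of Arpc5l, and most members lay far above it. These 6821 genes are therefore not matched to the members in level. In either direction, 20.5% of the members were called, against 17.5% of all tested genes and 22.8% of the 6821. The share of members called thus lay near that of other genes. The median log2 fold change was 0.04 over the 39 and -0.01 over all tested genes. With library totals in place of the normalization factors, 2 members were higher and 5 lower and their median was -0.05, while 28.1% of all called genes were higher against 52.2% as reported. These factors differed by group, at 1.02 to 1.04 in controls and 0.958 to 0.978 in MNP libraries. Leaving out control 2, MNP 1, MNP 2 or MNP 3 left 4, 3, 2 and 2 members higher, and none of the 39 was lower without control 1, control 2 or any 1 of the MNP libraries.

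The size of the differences was bounded more firmly than for most genes. None of the 39 differed by 1.5-fold, against 13.3% of all tested genes and 5.12% of the 6821 genes at or above the lowest member mean. The standard error (SE) of the log2 fold change had a median of 0.06 over the members and 0.11 over all tested genes. All 39 members had a 95% interval inside 1.5-fold in either direction, from -0.40 to 0.46 on the log2 scale, as had 62.8% of all tested genes and 90.1% of the 6821. Every MNP library lay above every control library for 12 of the 39 members and below for 3. Of all tested genes, 17.2% and 17.4% did so, and of the 6821 genes at or above the lowest member mean 1525 and 1263.

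**Figure D1:**
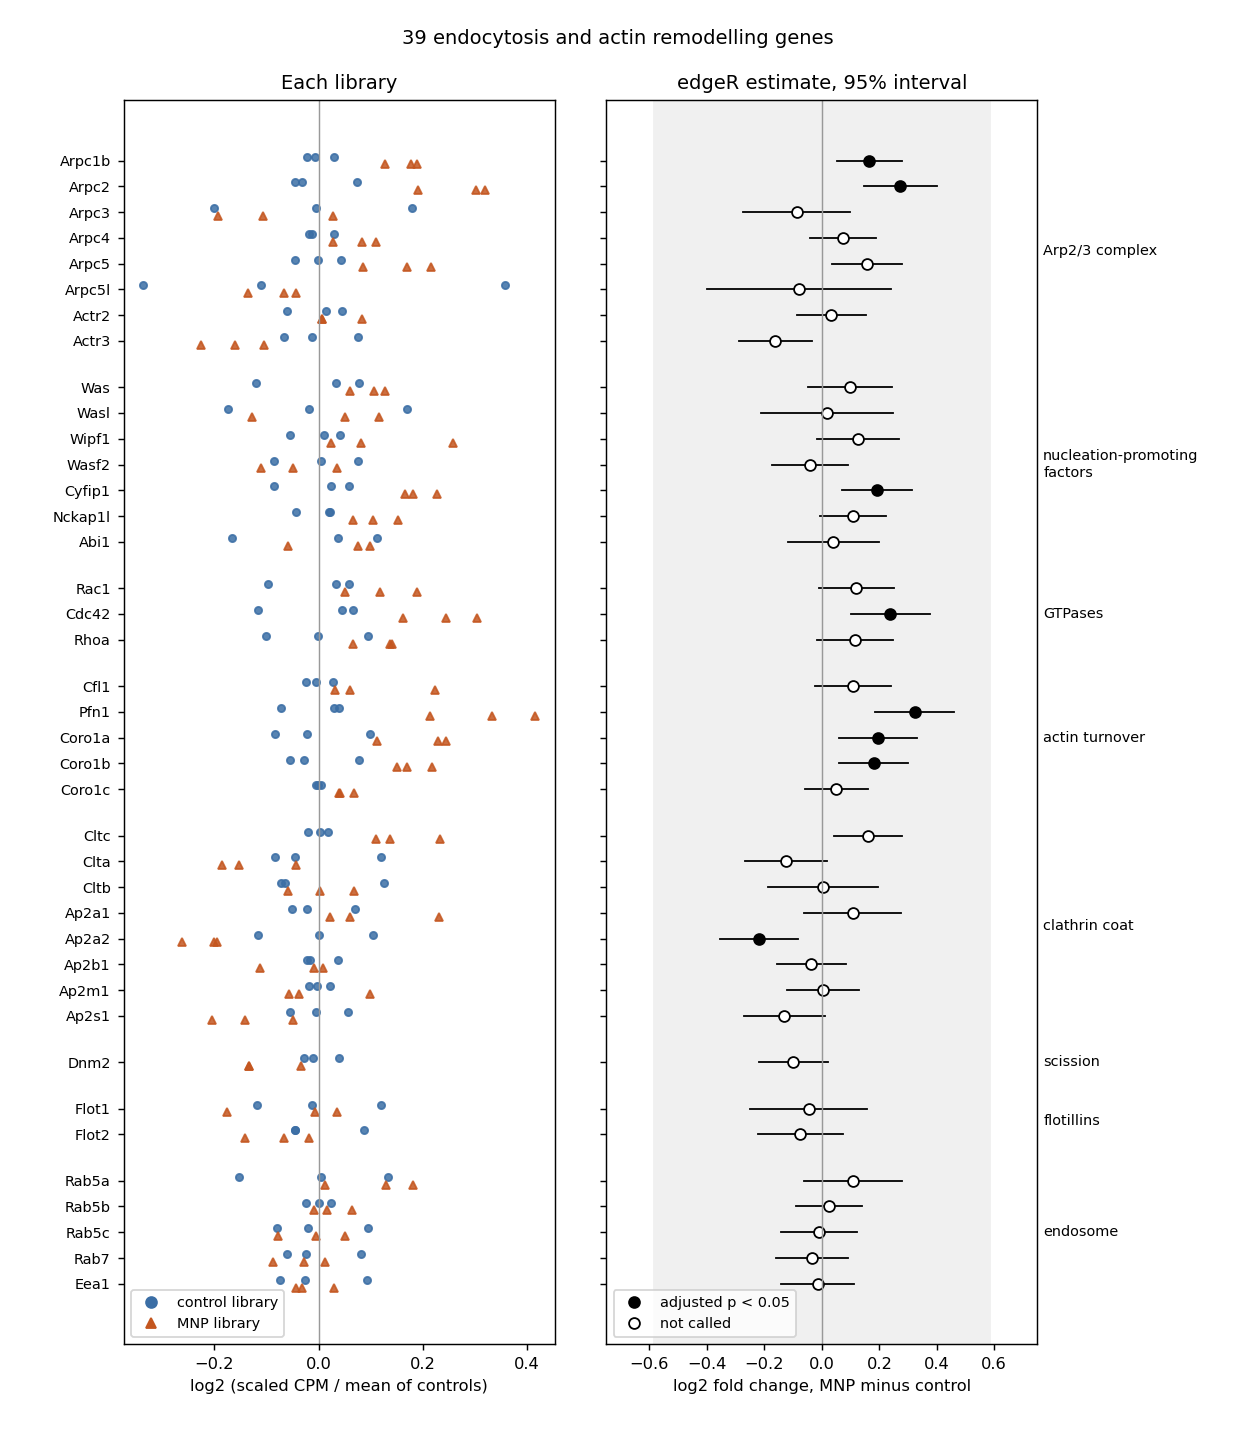
Levels of the 39 genes by role. The left panel plots each library as log2 of its scaled CPM over the mean of the 3 controls (circles, control; triangles, MNP), and the right panel the edgeR log2 fold change, MNP minus control, with its 95% interval, filled where the adjusted p was under 0.05; the grey band spans 1.5-fold either way and holds all 39 intervals.

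The promoters of the members that changed were looked up in the RefSeq promoter table of build GRCm38.p6, which held 33 of the 39 genes and 6 of the 8 that changed (not Cyfip1 or Coro1b). Those of Arpc2 and Pfn1, called higher under every alternative analysis, and of Ap2a2, the gene called lower, are shown as the 250 bases before the RefSeq start. They lie at chr1:74236267-74236516 on the plus strand, chr11:70654651-70654900 on the minus strand and chr7:141561930-141562179 on the plus strand. Capitals mark the letters GGGCGG or their complement (the GC box) and, in Ap2a2 alone, the complement of CCAAT.
Arpc2: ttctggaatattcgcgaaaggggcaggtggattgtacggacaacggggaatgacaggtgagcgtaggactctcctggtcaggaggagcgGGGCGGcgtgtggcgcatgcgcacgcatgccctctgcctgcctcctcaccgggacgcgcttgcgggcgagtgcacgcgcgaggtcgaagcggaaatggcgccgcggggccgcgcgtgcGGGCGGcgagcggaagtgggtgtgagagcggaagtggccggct
Pfn1: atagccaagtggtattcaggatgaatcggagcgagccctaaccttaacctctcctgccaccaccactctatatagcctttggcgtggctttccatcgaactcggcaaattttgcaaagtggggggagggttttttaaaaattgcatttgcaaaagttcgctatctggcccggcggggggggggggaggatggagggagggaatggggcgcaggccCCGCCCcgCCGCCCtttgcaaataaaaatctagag
Ap2a2: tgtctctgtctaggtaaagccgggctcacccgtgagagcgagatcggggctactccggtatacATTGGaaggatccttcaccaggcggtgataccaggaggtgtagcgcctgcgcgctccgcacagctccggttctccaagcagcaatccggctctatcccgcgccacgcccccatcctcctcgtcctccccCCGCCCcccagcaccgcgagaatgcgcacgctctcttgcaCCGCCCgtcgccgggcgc
The GC box letters began 161 and 43 bases before the start in Arpc2, 35 and 27 in Pfn1, and 58 and 18 in Ap2a2, and CCAAT began 187 bases before it in Ap2a2. A gene was counted where any of its promoters held the letters. On either strand the GC box was found in all 6 changed members with a sequence. It was found in 24 of 33 members (72.7%), against 61.7% of tested genes with a sequence and 35.4% of all genes in the table. CCAAT was found in 17 of 33 members (51.5%), in 40.8% of tested genes and in 37.5% of all genes in the table. The letters TGACNNNGC, the core of the antioxidant response element, were found in Rab7 alone of the 33, and in 14.0% of tested genes and 11.5% of all genes in the table. CACGTG, the E-box of MITF and TFEB, was found in Ap2m1, Arpc5 and Rab5a, and in 10.1% and 6.86%. The CArG box of serum response factor was found in Arpc4, and in 1.31% and 1.62%. None of these last 3 motifs was found in the windows of the 6 changed members. The GC box and CCAAT were added after the other motifs had been searched, and the motifs share no letters in the 3 sequences shown.

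Of the 8 Arp2/3 genes, 2 rose and none fell. Arpc2 encodes one of the pair of subunits that form the core of the complex. Its levels were 448, 452 and 487 scaled CPM in controls 1 to 3 and 528, 570 and 577 in MNP 1 to 3. The groups did not overlap, and the difference of 20.8% (log2 fold change 0.27 ± 0.06 SE, edgeR adjusted p = 0.00567) was the second largest increase among the members. Arpc1b, the blood cell form of the subunit that binds activators, stood at 643, 637 and 660 in controls and at 737, 706 and 732 in MNP libraries. That is 12.1% higher with no overlap (0.16 ± 0.05, adjusted p = 0.0452), but the adjusted p was 0.132 without control 2 and 0.107, 0.128 and 0.0780 without MNP 3, 1 and 2. It was 0.308 with library totals (log2 0.08) and 0.0549 with the stricter filter. Arpc1b shares 931 exon bases with Pdap1 on the other strand, and the processed pseudogene Gm5637, a near-identical copy, had 292 counts in all, 0.325% of those of Arpc1b. GENCODE also lists near-identical processed pseudogenes of Arpc2, Actr2, Actr3, Ap2m1, Cfl1, Rab5b, Rab7 and Rhoa, which were not analysed here, so these counts may hold reads of the copies, or lack reads given to them.

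The remaining Arp2/3 genes did not pass. Arpc5, a small subunit of the complex, was at 358, 347 and 337 in controls and 368, 390 and 403 in MNP libraries, without overlap (0.16 ± 0.06, adjusted p = 0.0736). Actr3, the actin-related protein ARP3 and the most abundant of the family by count, was at 1091, 988 and 1026 and at 885, 926 and 963. Here the MNP libraries lay below the controls without overlap (-0.16 ± 0.06, adjusted p = 0.0775). With library totals Actr3 passed as lower (-0.25, adjusted p = 0.00673). Actr2, which encodes ARP2, the partner of ARP3, overlapped at 857 to 922 in controls and 898 to 947 in MNP libraries (0.03 ± 0.06). Arpc4, the other core subunit, was at 279 to 289 and 288 to 305 (0.07 ± 0.05). Arpc3 was at 393 to 511 and 395 to 460 (-0.09 ± 0.09), the widest spread between controls among the abundant subunits. Arpc5l, the paralog of Arpc5, was low at 13.3 to 21.5 and 15.3 to 16.3, and its interval was the widest of the 39 (-0.40 to 0.24). Control 1 was the highest Arpc5l library, and the gene shares 62 exon bases with the ribosomal protein gene Rpl35, which had 7248 to 9890 counts per library.

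A share of the family's counts does not depend on how libraries are scaled. The shares of a family sum to the whole, so they are not independent of each other, and they were added after the levels had been seen. Within the Arp2/3 family, Arpc1a included, Arpc2 took 10.7%, 10.9% and 11.5% of counts in controls and 12.7%, 13.2% and 13.1% in MNP libraries. Actr3 took 26.1%, 23.9% and 24.3% and then 21.2%, 21.5% and 21.9%. The 2 genes thus parted in every library: the Arpc2 share went from 11.1% ± 0.417 to 13.0% ± 0.308 and the Actr3 share from 24.8% ± 1.19 to 21.6% ± 0.339 (SD, n = 3, exact permutation p = 0.1 each, the smallest that 3 against 3 can give, and 0.256 after adjustment over 23 shares). Arpc1b (15.5% ± 0.139 to 16.9% ± 0.676) and Arpc5 (8.31% ± 0.304 to 9.03% ± 0.176) also had higher shares without overlap, and those of Arpc1a, Arpc3, Arpc4, Arpc5l and Actr2 overlapped. The ratio of Arpc1a, the widely expressed form, to Arpc1b was lower in each MNP library, with a log2 ratio of -3.97 ± 0.118 in controls and -4.14 ± 0.0396 in MNP libraries (SD, n = 3, exact p = 0.1, 0.42 over 21 pairs). Arpc1a itself stood at 39.1 to 44.3 and 40.3 to 41.4 scaled CPM.

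**Figure D2:**
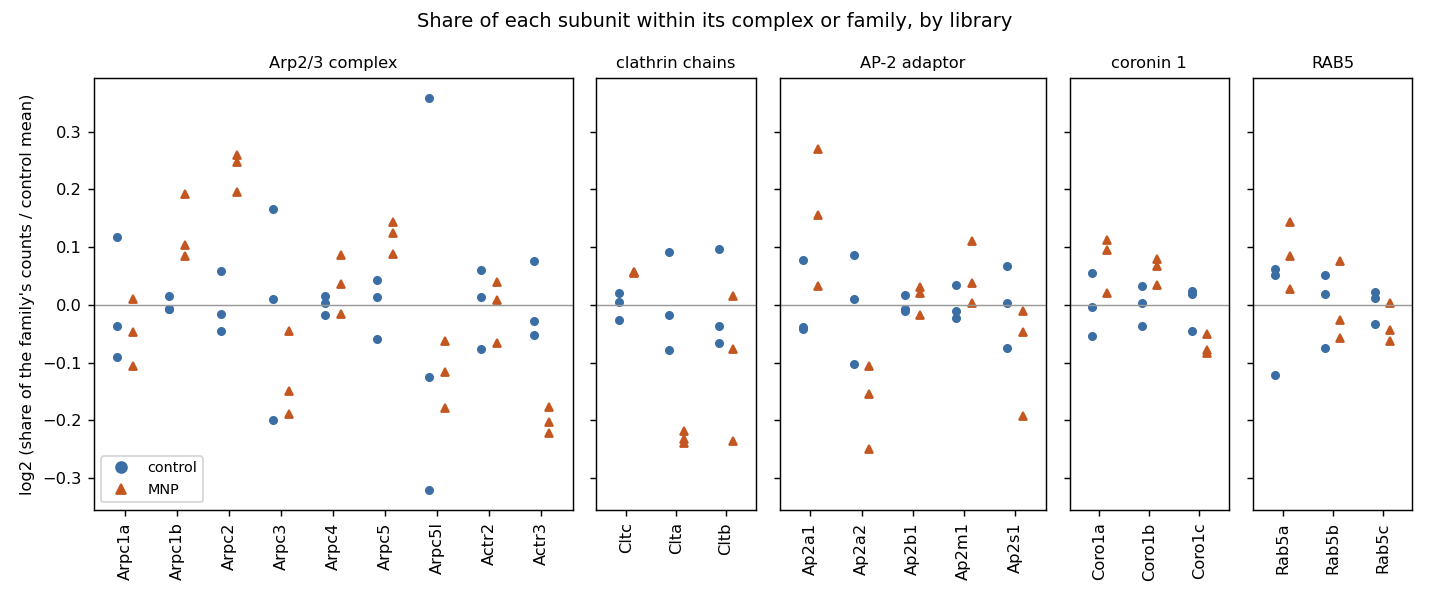
Share of each subunit in the counts of its complex or family, as log2 of the share over the control mean, by library (circles, control; triangles, MNP). Arpc1b, Arpc2 and Arpc5 lie above the controls and Actr3 below in the Arp2/3 panel, the shares of Cltc and Clta, which nearly sum to the whole, lie on opposite sides, and all 3 RAB5 genes overlap.

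Among the activators of Arp2/3, Cyfip1 rose, and the other 6 did not pass. Cyfip1 encodes the WAVE complex subunit that binds active Rac1. It was at 398, 440 and 429 scaled CPM in controls and 474, 479 and 494 in MNP libraries, with no overlap and 14.2% higher (0.19 ± 0.06, edgeR adjusted p = 0.0333). The call ended without control 1 (adjusted p = 0.0578) and without MNP 1, 2 or 3 (0.0636, 0.0886 and 0.110), and with library totals (0.212). Cyfip1 shares 1316 exon bases with Nipa2 on the other strand, whose counts ran from 1708 to 2045 in controls and 1853 to 1969 in MNP libraries. Its paralog Cyfip2 was at 162, 163 and 169 and at 159, 161 and 161 (-0.04 ± 0.05). The log2 ratio of Cyfip1 to Cyfip2 was 1.36 ± 0.0720 in controls and 1.59 ± 0.0257 in MNP libraries, higher in 3 of 3 (exact p = 0.1, 0.42 over 21 pairs).

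No other tested gene of the WAVE complex described here passed. Nckap1l, which encodes its blood cell scaffold HEM1, was at 729, 762 and 761 and at 785, 807 and 834, without overlap (0.11 ± 0.05, adjusted p = 0.196). Nckap1, the form of other tissues, was near 4.05 ± 0.108 and 5.63 ± 0.793 scaled CPM and did not pass (0.47 ± 0.18, adjusted p = 0.0927). Its log2 ratio to Nckap1l went from -7.53 ± 0.0744 to -7.17 ± 0.180 without overlap (exact p = 0.1). Abi1, an adaptor of the complex, was at 248 to 300 and 266 to 297, and Wasf2, the WAVE protein itself, at 195 to 218 and 192 to 212. Was, the blood cell WASP, was at 67.9 to 77.8 and 76.9 to 80.5 (0.10 ± 0.07). Wipf1, which binds and stabilizes WASP, was at 159 to 170 and 168 to 198 (0.12 ± 0.07), and Wasl, the widely expressed N-WASP, at 20.7 to 26.3 and 21.4 to 25.3. The Was to Wasl ratio overlapped between the groups (exact p = 0.7).

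Cdc42, the GTPase that activates WASP and drives filopodia and phagocytic cups, rose. It was at 925, 1034 and 1049 scaled CPM in controls and 1122.5, 1188 and 1238 in MNP libraries, without overlap and 17.9% higher (0.24 ± 0.06, edgeR adjusted p = 0.0204). Control 1 was the lowest library. The call ended without MNP 2 or MNP 3 (adjusted p = 0.0741 and 0.0902) and with library totals (0.15, adjusted p = 0.102). Rac1, which drives lamellipodia through WAVE, was at 300, 334 and 328 and at 348, 366 and 332, and the groups overlapped (0.12 ± 0.06, adjusted p = 0.206). Rac1 shares 2309 exon bases with Daglb on the other strand, and Daglb had 5281 to 6008 counts in controls and 3920 to 4446 in MNP libraries, so the Rac1 level is uncertain where strand was not used. Rhoa, which drives contraction, was at 438, 469 and 501 and at 491, 518 and 516 (0.11 ± 0.06, adjusted p = 0.225). Ratios of Rac1 to its blood cell paralog Rac2 and of Rhoa to Rhob and Rhoc overlapped between groups.

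Actin turnover held 3 of the 7 increases, and in each of its 5 genes every MNP library lay above every control. Of all tested genes, 9.11% were higher and 17.2% lay above in this way, as did 1525 of the 6821 at or above the lowest member mean. The 26 further turnover genes described below did not share this direction. Among them 2 were higher and 4 lower, and MNP libraries lay above all controls in 3 and below in 6. Pfn1, which loads actin monomers with ATP and hands them to growing filaments, was at 263, 244 and 262 scaled CPM in controls and 323, 342 and 297 in MNP libraries. Its difference of 25.1% (0.32 ± 0.06, edgeR adjusted p = 0.00294) was the largest among the 39 genes, and its log2 fold change stayed between 0.23 and 0.38 over 16 analysis settings. Coro1a, the leukocyte coronin, was at 177, 163 and 156 and at 194, 179 and 196, where the lowest MNP library and the highest control nearly met. It was 14.6% higher (0.20 ± 0.06, adjusted p = 0.0481). Coro1b, the coronin that counters Arp2/3 at the rear of lamellipodia, was at 166, 151 and 154 and at 174, 177 and 183, 13.3% higher (0.18 ± 0.06, adjusted p = 0.0430). Neither coronin passed without control 2 (adjusted p = 0.133 for Coro1a and 0.143 for Coro1b), control 3 (0.136 and 0.0958), MNP 1 (0.127 and 0.0693), MNP 2 (0.0513 and 0.110) or MNP 3 (0.153 and 0.132). With library totals the values were 0.247 and 0.267, with upper-quartile factors 0.0598 and 0.0506, and with the stricter filter 0.0550 and 0.0501. Coro1b shares 432 exon bases with Ptprcap on the same strand, which had at most 8 counts in a library.

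Coro1c, the widely expressed coronin, was at 328, 329 and 328 in controls and at 338, 338 and 344 in MNP libraries. Its controls were the most alike of the 39 genes, and a difference of 3.50% without overlap did not pass (0.05 ± 0.05, adjusted p = 0.556). Cfl1, the cofilin that severs filaments, was at 1149, 1109 and 1124 and at 1176, 1153 and 1316, also without overlap and without passing (0.11 ± 0.06, adjusted p = 0.262). Coro1b took 24.1% ± 0.593 of coronin 1 counts in controls and 25.2% ± 0.408 in MNP libraries, while Coro1c went from 50.5% ± 1.36 to 48.1% ± 0.593. Both shares were without overlap (exact p = 0.1 each), and that of Coro1a overlapped at 24.5% to 26.4% and 25.8% to 27.5%. The log2 ratio of Coro1b to Coro1c, from -1.07 ± 0.0705 to -0.93 ± 0.0195, was among the 5 of 21 paralog ratios in which the groups did not overlap (exact p = 0.1).

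Of 8 clathrin coat genes, Ap2a2 fell and none rose. Ap2a2 encodes the second of the alternative alpha subunits of AP-2, which bind phosphoinositides in the membrane. It was at 143, 133 and 123 scaled CPM in controls and at 116, 116 and 111 in MNP libraries, with no overlap and 14.1% lower (-0.22 ± 0.06, edgeR adjusted p = 0.0294). The adjusted p was 0.0861 and 0.0882 without controls 1 and 2 and 0.0680, 0.0950 and 0.124 without MNP 1, 2 and 3, 0.0846 with no filter and 0.00458 with library totals. Its paralog Ap2a1 was at 43.7, 46.6 and 42.9 and at 52.1, 46.3 and 45.1 (0.11 ± 0.08, adjusted p = 0.394). Within each library the log2 ratio of Ap2a1 to Ap2a2 was -1.58 ± 0.112 in controls and -1.26 ± 0.0894 in MNP libraries, higher in 3 of 3 without overlap (SD, n = 3, exact p = 0.1, 0.42 over 21 pairs). Ap2a1 shares 720 exon bases with Fuz on the other strand, which had 75 to 138 counts per library.

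The other AP-2 subunits did not pass. Ap2b1, the beta subunit that binds clathrin, was at 198 to 206 and 186 to 202.5. Ap2m1, the mu subunit that binds cargo, was at 335 to 345 and 326 to 363 (0.00 ± 0.06). Ap2s1, the sigma subunit, was at 75.2, 77.9 and 81.2 and at 75.4, 70.8 and 67.8, where only MNP 1 reached the controls (-0.13 ± 0.07, adjusted p = 0.203, and 0.0328 with library totals). Of AP-2 counts, Ap2a2 took 16.7% ± 1.10 in controls and 14.9% ± 0.746 in MNP libraries without overlap (exact p = 0.1), and the other 4 shares overlapped.

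Clathrin itself comes as a heavy chain and light chains. Cltc, the heavy chain, was at 1326, 1361.5 and 1348 and at 1452, 1479 and 1581, all MNP libraries above all controls (0.16 ± 0.06, adjusted p = 0.0622). The value passed with DESeq2 (adjusted p = 0.0141). Clta, light chain A, was at 340, 331 and 381 and at 308.5, 315 and 340, with overlap (-0.13 ± 0.07, adjusted p = 0.223). With library totals Clta passed as lower (-0.21, adjusted p = 0.0264). Of the clathrin counts, Cltc took 78.4%, 79.3% and 76.7% in controls and 81.2% in each MNP library, without overlap (exact p = 0.1, 0.256 over 23 shares). Since Cltb holds little of these counts, the share of Clta is nearly the remainder and no separate result: it was 20.1%, 19.3% and 21.7% and then 17.3%, 17.3% and 17.5%. Cltb, light chain B, was at 25.3 to 29.0 and 25.5 to 27.8 scaled CPM, and took 1.54% ± 0.0947 and 1.44% ± 0.125 of the counts.

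Dnm2, the dynamin of most cells, was at 201, 192 and 195 and at 179, 179 and 192, all MNP libraries below all controls (-0.10 ± 0.05, adjusted p = 0.252). With library totals it passed as lower (-0.19, adjusted p = 0.0230). Flot1 and Flot2, scaffold proteins of clathrin-independent membrane domains, were at 24.3 to 28.7 and 23.4 to 27.0, and at 63.5 to 69.6 and 59.4 to 64.7, each with overlap.

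No endosome gene passed with edgeR, DESeq2 or limma-voom, and all 5 overlapped between the groups. An unadjusted edgeR p under 0.05 was found for 0 of these 5, for 11 of the 39 members and for 3857 of the 12893 tested genes. Rab5a, Rab5b and Rab5c encode the 3 forms of the early endosome GTPase. Rab5c, with the most counts, was at 172 to 195 in controls and 173 to 189 in MNP libraries, Rab5b at 117 to 121 and 118 to 124, and Rab5a at 64.4 to 78.5 and 72.2 to 81.1. Their shares of RAB5 counts were 48.9% ± 0.989, 31.9% ± 1.43 and 19.2% ± 1.34 in controls and 47.8% ± 1.12, 31.9% ± 1.55 and 20.4% ± 0.819 in MNP libraries. Eea1, the tether that RAB5 recruits to fuse early endosomes, was at 315, 353 and 325 and at 321, 338 and 324 (-0.01 ± 0.06, 95% interval -0.14 to 0.11). Rab7, the late endosome GTPase, was at 589, 574 and 634 and at 564, 605 and 588 (-0.03 ± 0.06, 95% interval -0.16 to 0.09). For Rab5b and Rab5c the intervals were -0.09 to 0.14 and -0.14 to 0.12, and for Rab5a -0.06 to 0.28.

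Levels can be set between genes only per transcript length, here scaled CPM per kb of the GENCODE M21 principal transcript, matched by symbol for all 39. In controls Arpc3 (502 ± 65.7), Cfl1 (479 ± 8.51) and Cdc42 (476 ± 32.2) came first, with SD ranges that overlapped. Actr3 (403 ± 20.4), Arpc2 (321 ± 14.7) and Clta (309 ± 23.6) followed, and the SD ranges of the last pair overlapped. The lowest were Wasl (5.37 ± 0.642), then Cltb (12.1 ± 0.961), Arpc5l (12.5 ± 3.17) and Ap2a1 (12.9 ± 0.567), of which the last 3 had overlapping SD ranges. Some paralogs with the same role stood far apart on this scale. Clta was at 309 and Cltb at 12.1, Arpc5 at 181 and Arpc5l at 12.5, Was at 34.9 and Wasl at 5.37, and Ap2a2 at 28.7 and Ap2a1 at 12.9. The other subunits of AP-2 stood at 115 for Ap2m1, 93.4 for Ap2s1 and 35.8 for Ap2b1, all above both alpha subunits. Other paralogs lay closer together: Coro1a was at 94.6, Coro1c at 94.1 and Coro1b at 83.2, and Rab5b at 37.3 and Rab5a at 30.3, with Rab5c at 95.2. In MNP libraries Cdc42 (561 ± 27.5), Cfl1 (516 ± 37.4) and Arpc3 (472 ± 36.4) came first, and the SD range of Cfl1 overlapped those of the others. The order depends on the transcript chosen, and with the median length of each gene's basic transcripts Cfl1 came first at 982.

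**Figure D3:**
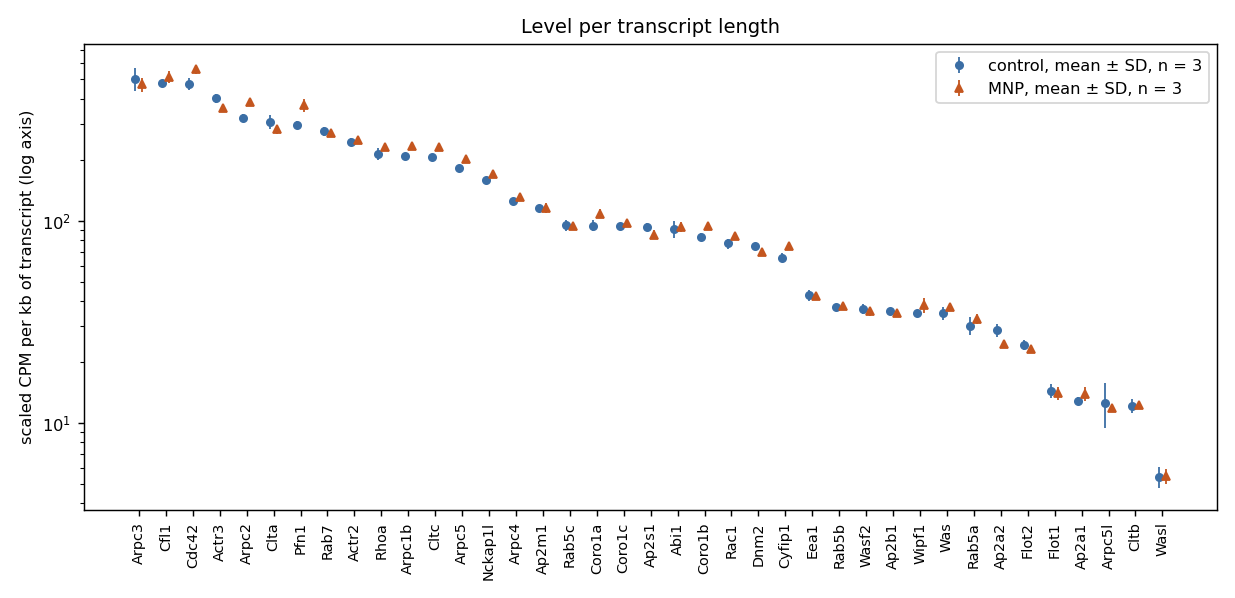
Scaled CPM per kb of principal transcript for the 39 genes, ordered by the control mean, on a log axis (circles, control; triangles, MNP; mean ± SD, n = 3). The levels run from 502 for Arpc3 to 5.37 for Wasl in controls, and the groups lie close together at every level.

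Across the alternative analyses, Arpc2 and Pfn1 were called higher in 16 of 16 settings. Cdc42 was called in 12, Cyfip1 in 10, Arpc1b and Ap2a2 in 9, and Coro1a and Coro1b in 7. The direction of all 8 was the same in every setting. Arpc5, Cltc and Actr3 passed in some: Arpc5 and Cltc as higher and Actr3 as lower with DESeq2 (adjusted p = 0.0367, 0.0141 and 0.0378).

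**Figure D4:**
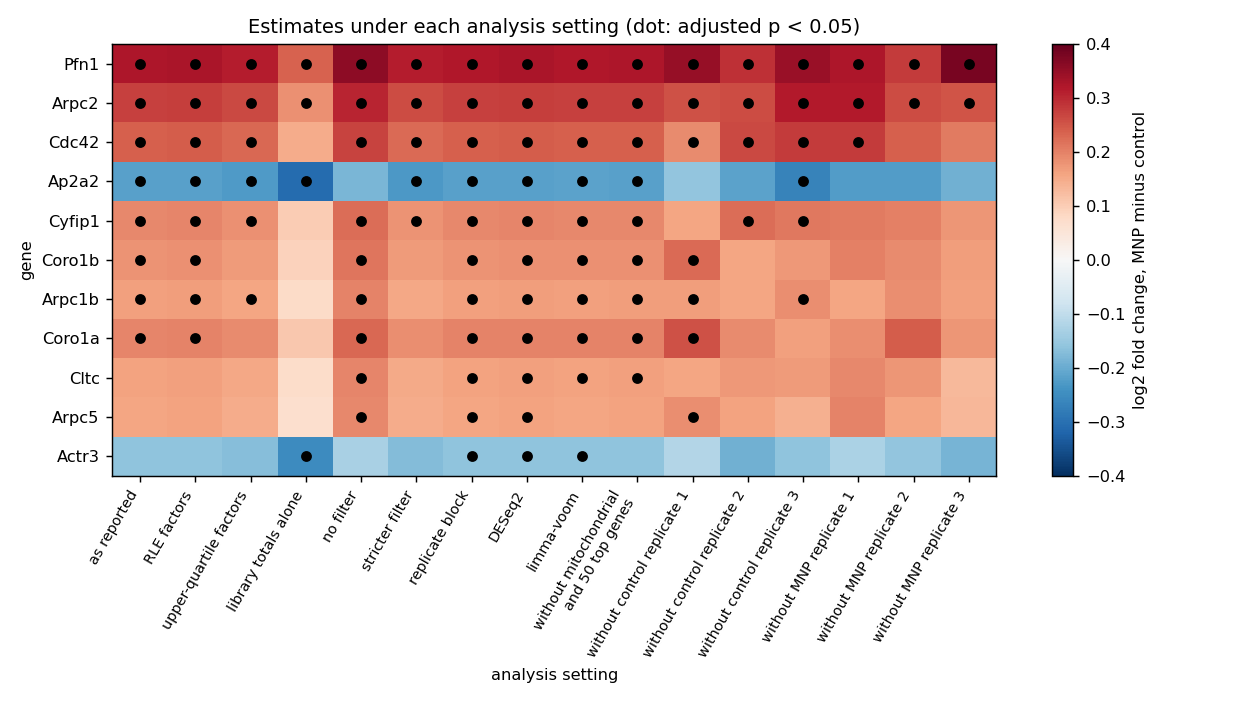
Log2 fold change (colour, MNP minus control) of the 8 called members and of Cltc, Arpc5 and Actr3 in each analysis setting, with a dot where the adjusted p was under 0.05. Pfn1 and Arpc2 carry a dot in every column, and fewer genes do with library totals alone and where a library was left out.

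Other genes of the same pathways gave a wider range of differences: 194 genes in 7 lists, of which 183 were tested. Of these 22 rose and 22 fell (12.0% each), against 9.11% and 8.35% of all tested genes and 13.2% and 9.65% of the 6821. The range ends at Dnm3 (log2 -1.935) and Epn2 (1.00), named for that alone. Their control means were 0.979 and 2.66 scaled CPM, below the lowest member mean of 16.8. The median size of the log2 fold change was 0.12 in these lists and 0.11 in the members. Of 28 tested other nucleators and paralogs, 3 rose and 1 fell, but 1 rose and 3 fell with library totals. The formin Inf2, which builds unbranched filaments, rose from 48.1 ± 4.92 to 72.2 ± 3.78 scaled CPM (SD, n = 3, log2 0.59 ± 0.08 SE), and Fmnl1 (0.30) and Fmnl3 (0.29), formins of leukocyte protrusions, also rose. Jmy, an Arp2/3 activator, fell by 0.33 on the log2 scale. Of 26 further turnover genes, 2 rose and 4 fell. Cap1, which recycles actin monomers, went from 803 ± 35.4 to 1016.5 ± 29.7 (0.34 ± 0.06) and Gsn (gelsolin) rose by 0.31. Gmfg, which dissolves Arp2/3 branches, went from 42.6 ± 6.33 to 23.4 ± 0.728 (-0.86 ± 0.10) and Vasp, a filament elongator, from 77.0 ± 5.55 to 58.9 ± 1.86 (-0.39 ± 0.07). Among 26 actins and binding proteins, 8 rose and 1 fell (3 and 1 with library totals). Flna (filamin A) went from 1543 ± 113 to 2074 ± 79.3 (0.43 ± 0.06), Actg1 (gamma actin) from 1912 ± 61.5 to 2228 ± 19.4 (0.22 ± 0.05), and Tpm4 and Zyx rose by 0.42 and 0.33.

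Among 34 clathrin accessory genes, 4 rose (11.8%) and 2 fell (5.88%), but 1 rose and 6 fell with library totals. Of all tested genes, 9.11% rose and 8.35% fell, and with library totals 5.87% and 15.1%. Itsn1, the intersectin scaffold of coated pits, went from 111 ± 3.10 to 82.2 ± 4.42 (-0.44 ± 0.06) and Cd2ap fell by 0.29, while Numb (0.26), an endocytic adaptor, and Bin1 (0.30), which bends membrane, rose. In the list of caveolae and EHD proteins, 1 rose and 4 fell of 7 tested: Cav2 rose (0.32), and Ehd1 (-0.32), Ehd4 (-0.20) and Cavin1 (-0.95) fell, as did Cavin2, whose mean was under 5 scaled CPM and which was named after its values were seen. Of 49 further endosome genes, 2 rose (4.08%) and 9 fell (18.4%), and 0 and 18 with library totals. Rin2, a RAB5 exchange factor, went from 281 ± 5.16 to 227 ± 4.30 (-0.31 ± 0.05) and Snx2, a retromer sorting nexin, from 241 ± 10.9 to 194 ± 6.75 (-0.31 ± 0.06), and Vps33a (-0.31) and Appl2 (-0.39) also fell. The sorting adaptors AP-1 and AP-3 and the GGA proteins gave 2 higher and 1 lower of 13: Ap1b1 fell from 163 ± 10.5 to 122 ± 9.62 (-0.42 ± 0.07), and Ap1s2 (0.29) and Ap3s1 (0.27) rose.

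**Figure D5:**
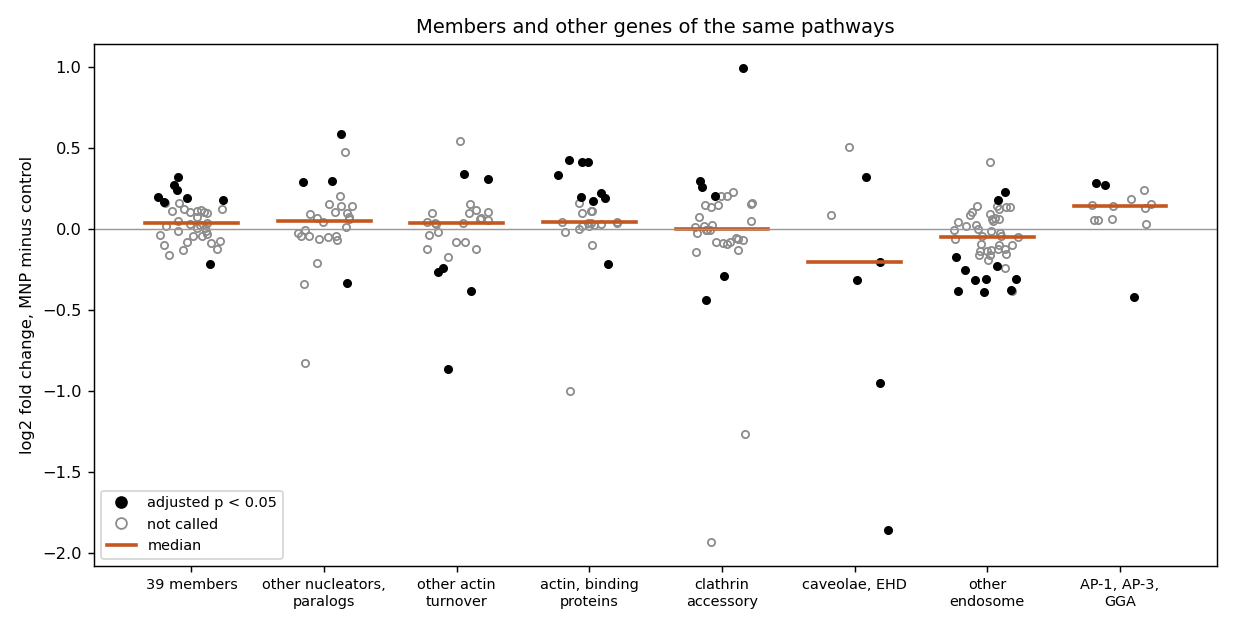
Log2 fold change, MNP minus control, of each tested gene among the 39 members and in 7 lists of other genes of the same pathways (filled, adjusted p under 0.05; bars, medians). The members lie between -0.22 and 0.32, inside the range of every list except that of the sorting adaptors on its higher side.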

How the data were processed

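RNA from 3 control and 3 MNP samples went into CORALL RNA-seq V2 libraries, per the labels' protocols. Each of the 6 files deposited by the authors holds whole counts for 40213 gene symbols. The submitters' processing notes name GATK, STAR, Salmon and fastp and the build GRCm39, without versions or roles. What annotation and strand setting were used, and whether molecular identifiers were counted or estimates rounded, is not given in the sources used here. Counts of overlapping genes and near-identical copies can therefore not be separated for certain.

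Sample titles gave the group and the replicate number. Replicates of a group differed beyond sampling noise in every pair (chi-square per degree of freedom 6.95 to 19.9). The tests on counts used edgeR 4.0.16 (R 4.3.3), with TMM normalization factors, which were 1.02 to 1.04 in controls and 0.958 to 0.978 in MNP libraries. They used the default filter by group, the quasi-likelihood F test and Benjamini-Hochberg adjustment over 12893 genes, with a threshold of 0.05. The SE is the size of the log2 fold change divided by the root of F, and 95% intervals use the fit's total degrees of freedom. One count was worth 0.0424 to 0.0483 scaled CPM. Ratios of paralogs used counts plus 0.5 and two-sided exact permutation tests over samples, as did shares of a family's counts. The edgeR fit was tested on simulated counts.

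The 39 members, the 7 lists of other pathway genes (194 genes), the cell type markers and the paralog pairs were chosen with earlier results of these data known. All 39 members are reported. A further list and a gene of another list are not reported here. From each list, up to 4 called genes with the smallest p and a mean of at least 5 scaled CPM were named, with the partners in paralog pairs. Transcript lengths, exon overlaps and near-identical copies (at least 95% identity over 200 bases, BLAST+ 2.17.0) came from GENCODE M21, an older build, by symbol, with no coordinates used. Promoters came from RefSeq (GRCm38.p6), searched on both strands over 250 bases. Alternatives were RLE, upper-quartile and total-count scaling, no filter, a stricter filter of 1 CPM in every library, the replicate number as a block, DESeq2 1.42.0, limma-voom (limma 3.58.1), a threshold of 0.01, a fit without mitochondrial genes and the 50 most abundant ones, and leaving out each library.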

Additional observations from a re-analysis of the deposited data

How the results depend on the processing

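Of 2250 genes called, 1272 passed an adjusted p under 0.01, and among the members 2 were higher and 0 lower. With library totals alone, 2 members were higher and 5 lower, and their median log2 fold change was -0.049 (0.04 as reported). With no filter 9 were higher and 0 lower, and with the stricter filter 4 and 1. DESeq2 gave 9 higher and 2 lower, limma-voom 8 and 2. With the replicate block, 9 were higher and 2 lower of 2686 genes called. Without 1 library, members higher ran from 2 to 7, members lower from 0 to 1 and genes called from 1471 to 2245, with fewer samples in each fit. RLE and upper-quartile factors gave 7 and 5 higher and 1 lower each. With library totals, the lists gave, higher and lower, 1 and 3 (other nucleators), 2 and 5 (turnover), 3 and 1 (actins), 1 and 6 (clathrin accessory), 1 and 4 (caveolae), 0 and 18 (endosome) and 1 and 1 (sorting adaptors). The causes were not tested. Library totals also turned the sign of 8 members that did not pass, from 25 positive to 17. Same-numbered libraries deviated together with correlations of 0.12, 0.05 and -0.01, and 3 of 6 libraries correlated best with their own number, so the numbers were not taken as pairs. With 3 libraries a group, the members' median SE of 0.06 on the log2 scale limits which small differences can pass.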

Other observations

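Other genes of the wider lists also passed the test (edgeR adjusted p under 0.05) and were picked out here after their values were seen. Tmsb4x, thymosin beta 4, which holds actin monomers in reserve, fell from 2909 ± 206 to 2416 ± 69.5 scaled CPM (SD, n = 3, log2 -0.27 ± 0.06 SE), and Capza2, a subunit of the protein that caps filament ends, from 772 ± 32.7 to 654 ± 28.8 (-0.24 ± 0.06). Myh9, the heavy chain of non-muscle myosin, rose from 1207 ± 53.2 to 1386 ± 49.3 (0.20 ± 0.06), and Actn4 and Tpm3, which bundle and coat filaments, rose by 0.17 and 0.19. Vcl (vinculin), which links adhesions to actin, fell (-0.22 ± 0.07). On endosomes, Appl1 (-0.25 ± 0.06), a RAB5 effector, and Pikfyve (-0.23 ± 0.06), a lipid kinase, fell together with Appl2, while the GTPase Rab21 rose (0.23 ± 0.06). In each of these genes the MNP libraries did not overlap the controls, as for 17.2% (above) and 17.4% (below) of all tested genes. These genes were picked after passing the test, so the lack of overlap adds no support.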
